A study of Mus musculus with 2 samples.

Results

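Small proline-rich proteins and the other precursors of the cornified envelope are squamous epithelial genes, and they were followed here in a mouse rectal carcinoma line and a lung-recovered derivative of it. The set was a list of 10 symbols: the small proline-rich genes Sprr1a, Sprr1b, Sprr2h, Sprr2a1 and Sprr3, the envelope precursors Ivl and Lor, the crosslinking enzyme gene Tgm1, and the plakin genes Evpl and Ppl. Each symbol was given every probe set that the platform annotation assigns to it alone, which found 9 of the 10 genes, with 12 probe sets, among 18193 genes on the arrays. The list was chosen by gene family with the signals and log2 ratios of these same arrays in view, so the values below describe the genes and test nothing.

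The lung-recovered CMT-93-PM1 cells came from CMT-93 cells injected into the tail veins of female C57BL/6 mice aged 6 weeks, recovered from visible lung tumours 8 weeks later and grown in primary culture. The parental CMT-93 cells, a rectal carcinoma line, were cultured without passage through a mouse, and the labels give no other treatment or genetic change for either culture. The sources used here do not give how many mice or tumours stand behind the recovered culture, or whether it is a clone. There was 1 array per culture, so no difference has a replicate check and no test between the cultures was possible. What an individual culture, labelling reaction or array added to a difference cannot be told apart from what differs between the lines.

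The cornified envelope is a layer of crosslinked protein that replaces the plasma membrane of terminally differentiated squamous cells. Envoplakin and periplakin, which link the membrane to keratin filaments and desmosomes, form its scaffold. Transglutaminases then join involucrin, loricrin and small proline-rich proteins to that scaffold through glutamine and lysine residues. Most of the precursor genes lie side by side in the epidermal differentiation complex. Several Sprr genes are also known outside squamous tissue, and in mice Sprr1a is known as a gene induced by nerve injury and Sprr2a as one induced in gut epithelium by bacteria.

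The upstream sequences of 5 genes are shown first because they set the genes with the lowest ratios, Sprr1b, Sprr2h and Lor, beside close relatives whose signals hardly differed, Sprr1a and Sprr2k. Each is the 250 bases before the annotated transcription start, from RefSeq on GRCm38.p6, written on the strand of the gene. Capitals mark matches to the AP-1 motif TGANTCA (its own reverse complement in letters), the octamer ATTTGCAT and the Ets motif AGGAAG on both strands, and the TATA motif TATAAA on the strand of the gene. No match of one motif overlapped a match of another in these 5 sequences.
Sprr1b (chr3:92438780-92439029, minus strand): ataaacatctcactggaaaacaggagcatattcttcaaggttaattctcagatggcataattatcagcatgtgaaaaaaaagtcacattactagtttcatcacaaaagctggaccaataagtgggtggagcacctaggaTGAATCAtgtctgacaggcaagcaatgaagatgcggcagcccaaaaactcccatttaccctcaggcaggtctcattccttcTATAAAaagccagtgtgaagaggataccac
Sprr2h (chr3:92385435-92385684, plus strand): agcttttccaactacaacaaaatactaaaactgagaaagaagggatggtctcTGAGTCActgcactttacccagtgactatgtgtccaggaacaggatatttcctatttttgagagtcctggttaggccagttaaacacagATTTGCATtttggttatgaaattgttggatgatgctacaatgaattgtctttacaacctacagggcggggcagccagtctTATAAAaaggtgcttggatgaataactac
Lor (chr3:92083143-92083392, minus strand): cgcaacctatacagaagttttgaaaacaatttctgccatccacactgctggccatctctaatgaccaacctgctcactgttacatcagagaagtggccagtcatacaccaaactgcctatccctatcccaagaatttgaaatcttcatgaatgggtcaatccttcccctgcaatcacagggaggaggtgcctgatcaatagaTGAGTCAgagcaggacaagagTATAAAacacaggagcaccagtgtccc
Sprr1a (chr3:92485882-92486131, minus strand): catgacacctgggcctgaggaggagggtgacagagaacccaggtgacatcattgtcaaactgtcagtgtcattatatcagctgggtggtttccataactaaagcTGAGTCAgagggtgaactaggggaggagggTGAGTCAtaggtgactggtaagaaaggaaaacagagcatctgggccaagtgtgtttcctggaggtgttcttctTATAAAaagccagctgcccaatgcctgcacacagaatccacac
Sprr2k (chr3:92432332-92432581, plus strand): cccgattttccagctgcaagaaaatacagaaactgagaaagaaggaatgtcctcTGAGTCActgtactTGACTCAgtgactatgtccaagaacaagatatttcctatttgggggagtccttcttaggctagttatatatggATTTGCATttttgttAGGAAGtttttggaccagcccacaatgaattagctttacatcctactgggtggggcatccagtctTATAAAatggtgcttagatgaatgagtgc

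Sprr1b and Sprr2h had the lowest ratios of the set, and Sprr1a, the closest named relative of Sprr1b, was as bright in one line as in the other. Values are log2 signals, and every ratio is lung-recovered minus parental on that scale, so a negative ratio means a lower signal in CMT-93-PM1. Signals were floored at the 40th percentile of each array, 4.59 log2 for the lung-recovered and 4.69 for the parental array, and a gene at the floor on both was not measured. Of the 9 genes with a probe set of their own, 8 were measured, and all 8 exceeded the floor of each array. At least 2-fold lower were 3 of these 8, where 2.55% of all 13332 measured genes were, and 0 were at least 2-fold higher, where 4.42% of all measured genes were. The set was listed with this contrast in view, so its counts are given beside those shares only for scale. The median log2 ratio of the 8 was -0.20, against 0.00 over all measured genes, with 5 ratios below 0 and 3 above.

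**Figure D1:**
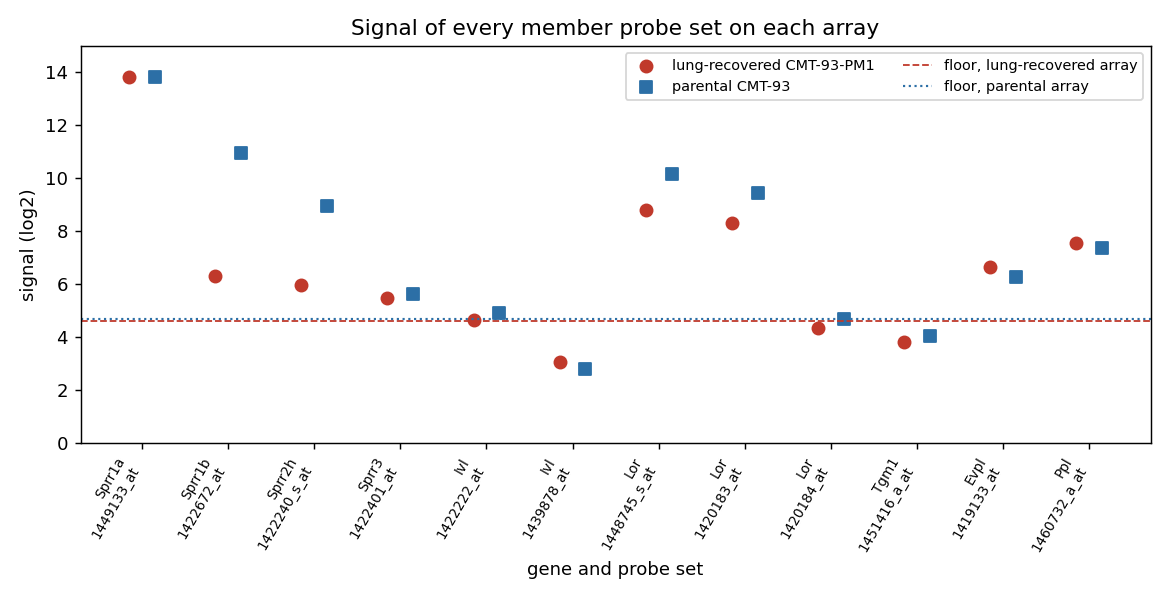
Signal (log2, vertical axis) of each of the 12 member probe sets on the lung-recovered array (circles) and the parental array (squares), with the floor of each array as a dashed or dotted line. Sprr1b, Sprr2h and the 2 bright Lor probe sets are lower in the lung-recovered line, and 3 probe sets lie under the floors on both arrays.

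Among the small proline-rich genes, Sprr1b, which encodes a crosslinked bridging protein of the envelope, read 6.32 in the lung-recovered line and 10.97 in the parental line. On a linear scale these signals are 79.9 and 2006, so that 3.98% of the parental signal was left in the recovered line, a 25.1-fold lower signal with a log2 ratio of -4.65. Only 3 of the other measured genes on the arrays had a ratio as low or lower. The signal in the recovered line was still 1.73 log2 above the floor, so the ratio is not a bound.

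Sprr2h, a member of the large Sprr2 group, read 5.97 in the lung-recovered line and 8.94 in the parental line, or 62.7 and 491 on a linear scale. It was 7.84-fold lower, with a log2 ratio of -2.97, and 27 measured genes, itself included, had a ratio this low or lower. Its only probe set, 1422240_s_at, carries the suffix that marks probes shared with other transcripts, and Sprr2 genes are close paralogs, so the signal cannot be assigned to Sprr2h alone.

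Sprr1a, whose product is a second crosslinked bridging protein of the same kind as Sprr1b, read 13.82 in the lung-recovered line and 13.81 in the parental line, a log2 ratio of 0.01. Both values lie near the highest signals on the arrays, 14.28 and 14.25, and no saturation calls were used here, so a difference at the top of the scale could be understated. Sprr3, known from oesophagus and other internal stratified epithelia, read 5.49 in the lung-recovered line and 5.62 in the parental line, close to the floor on both arrays, with a log2 ratio of -0.13. The 4 measured Sprr members thus covered a range of log2 ratios from -4.65 to 0.01.

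Sprr2a1 had no probe set of its own. Annotation to several Sprr2a genes at once was the case for 3 probe sets, which were counted for none of them. Their signals were 2.89, 7.21 and 6.95 in the lung-recovered line, against 2.96, 7.47 and 7.25 in the parental line, with log2 ratios of -0.07, -0.26 and -0.30. The bright ones were lower in CMT-93-PM1 by less than 2-fold, and the dim one was under the floor on both arrays.

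Lor encodes loricrin, the main glycine-rich protein of the epidermal envelope. Its brightest probe set, 1448745_s_at, read 8.81 in the lung-recovered line and 10.17 in the parental line, 2.57-fold lower with a log2 ratio of -1.36. A further Lor probe set, 1420183_at, read 8.30 and 9.44 in the same order, 2.20-fold lower, and the remaining one, 1420184_at, was at the floor on both arrays with 4.34 and 4.67. Both measured probe sets thus had lower signal in the recovered line, and they differed by 0.22 in log2 ratio. Across the arrays, 184 measured genes had a ratio as low as that of Lor or lower.

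Ivl, which encodes involucrin, an early soluble precursor, was hardly above the floor. Its probe set 1422222_at read 4.65 in the lung-recovered line and 4.91 in the parental line, a log2 ratio of -0.26, and 1439878_at was at the floor on both arrays with 3.04 and 2.80. Tgm1, which encodes the membrane-bound transglutaminase of keratinocytes, was at the floor on both arrays as well, with 3.81 in the lung-recovered line and 4.02 in the parental line, and was not measured.

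Neither plakin differed by 2-fold. Evpl, the envoplakin gene, read 6.66 in the lung-recovered line and 6.27 in the parental line, a log2 ratio of 0.39 and the highest of the set. Ppl, the periplakin gene, read 7.57 in the lung-recovered line and 7.35 in the parental line, a log2 ratio of 0.22. In size these ratios were 0.48 (Evpl) and 0.31 (Ppl) times the SD of the ratios of measured genes with a mean signal within 0.5 log2. No direction is therefore read from them.

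**Figure D2:**
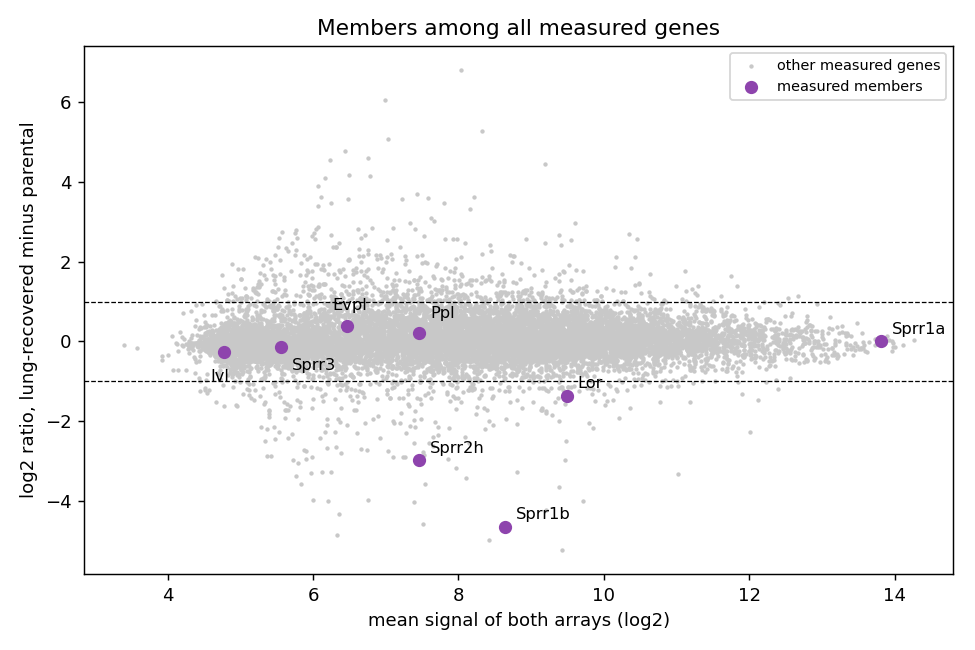
Log2 ratio, lung-recovered minus parental (vertical axis), against the mean log2 signal of both arrays (horizontal axis) for the measured genes, with the 8 measured members in purple and 2-fold as dashed lines. Sprr1b, Sprr2h and Lor lie below the lower line, and the other members lie between the lines.

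The ratios were also set against genes of like signal, since scatter depended on brightness. Of 2233 measured genes with a mean signal within 0.5 log2 of that of Sprr1b, 2 had a ratio as low or lower, Sprr1b included. For Sprr2h the count was 4 of 1927, and for Lor 24 of 1915. The log2 ratio of Evpl was no larger in size than the SD of the ratios of genes of like signal, 0.81 there, and that of Ppl was below the 0.71 found at its own signal. The spread of log2 ratios between probe sets of 1 gene, each ratio taken over both arrays, had a median SD of 0.17 and a 90th percentile of 0.49. This spread rests on a single culture per line and does not measure variation between replicate cultures, so no difference between the lines can be judged against it.

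In map order the measured genes next to Sprr1b had ratios near 0. The nearest measured neighbours of Sprr1b were Sprr2k, with 7.16 on both arrays and a log2 ratio of 0.00, and Sprr3, which is followed by Sprr1a. Sprr2f and Sprr2i, on either side of Sprr2h, were not measured. Sprr2d, further along, read 6.35 in the lung-recovered line and 5.73 in the parental line, a log2 ratio of 0.62. The neighbours of Lor towards the Sprr genes were Prr9, at the floor on both arrays, and Lelp1, with 4.64 and 4.74, a log2 ratio of -0.10.

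Over the stretch of chromosome 3 from S100a1 to S100a10, chosen after these values were seen and ordered by GRCm38.p6, 48 of 70 protein-coding genes had a probe set and 31 were measured. At least 2-fold lower were 5 of the 31, and 0 were at least 2-fold higher, beside 2.55% and 4.42% of all measured genes. The median log2 ratio was -0.17, beside 0.00 over all measured genes. That 0.00 is not matched for signal, and many genes of the stretch were dim. Of 2196 measured genes with a mean signal within 0.5 log2 of that of Sprr3, 999 had a ratio of -0.13 or lower, Sprr3 included. The medians of the stretch are therefore not read as a shift of the whole region. Without the members, 2 of 25 were lower and the median was -0.10. These 2 were the calcium-binding protein genes S100a1, at 10.02 in the lung-recovered line and 11.53 in the parental line, and S100a4, at 10.70 and 11.75 in the same order.

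**Figure D3:**
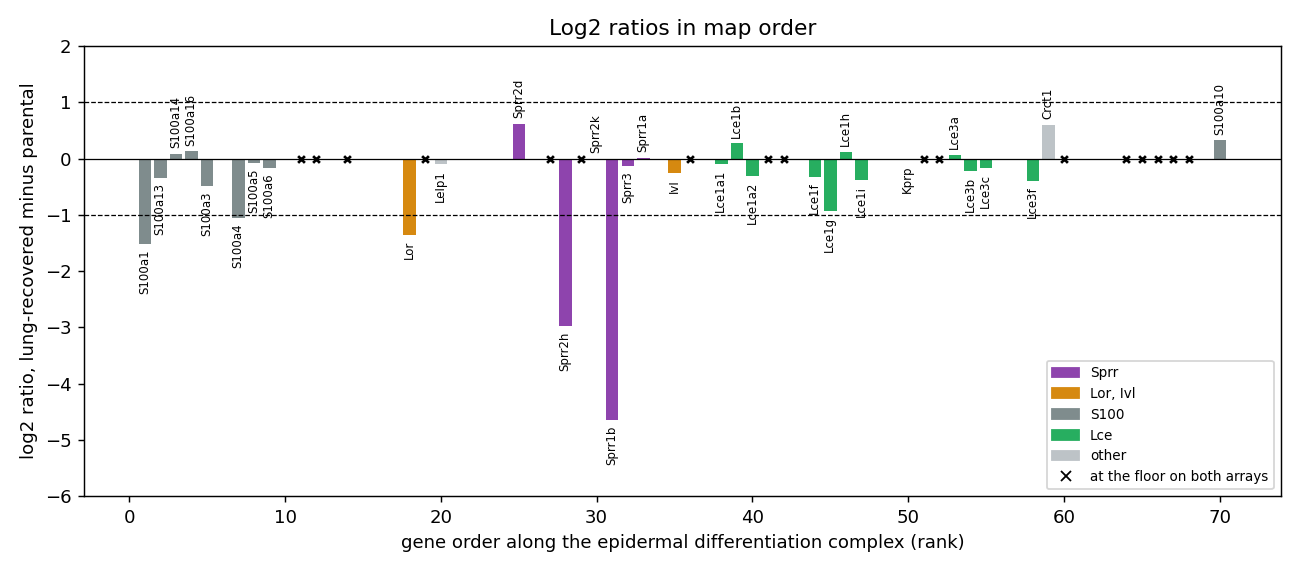
Log2 ratio, lung-recovered minus parental (vertical axis), of the 31 measured genes of the epidermal differentiation complex in map order on chromosome 3 (horizontal axis, rank), coloured by family, with crosses for genes at the floor on both arrays and 2-fold as dashed lines. Sprr1b at -4.65 lies between Sprr2k at 0.00 and Sprr3 at -0.13, and Sprr2h at -2.97 between genes at the floor, with Sprr2d at 0.62 and Sprr2k the nearest measured.

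Of the printed upstream sequences, those of Sprr2h and Sprr2k were alike, with 203 of 252 columns of a global alignment identical, or 80.6%. The log2 ratios of the probe sets named for them were -2.97 and 0.00, the first from probes shared with other transcripts. Sprr1b and Sprr1a shared 52.2% of aligned columns. The pairs of Lor with the aligned Sprr genes shared between 42.5%, with Sprr2k, and 47.4%, with Sprr2h. An AP-1 match lay upstream of Sprr1b, Sprr2h and Lor, each with 1, and there were 2 upstream of Sprr1a and 2 upstream of Sprr2k. Such a match was found in 6.75% of all 32851 promoters of the same length, and in 9 of 14 Sprr promoters.

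The octamer was present once each in Sprr2h and Sprr2k, 109 to 102 bases before the start in both, and in 7 of 10 Sprr2 promoters, against 1.60% of all promoters. Neither Sprr1 gene nor Lor had an octamer match. An Ets match was present in Sprr2k, 94 to 89 bases before the start, and in none of Sprr1b, Sprr2h, Lor and Sprr1a in this window, against 29.5% of all promoters. All 5 sequences held a TATA match, found in 7.59% of all promoters. AP-1 and TATA matches were thus found in genes with lower and with like signals, and the octamer, of these 5, only in Sprr2h and Sprr2k. The AP-1 match of Sprr1b reads TGAATCA, while Sprr2h, Lor, Sprr1a and Sprr2k each hold TGAGTCA. A match or its absence describes only these windows and these exact motif letters. Sites written with other letters were not searched, so no match does not mean no binding site. Any link of the motifs to the signals was not tested.

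**Figure D4:**
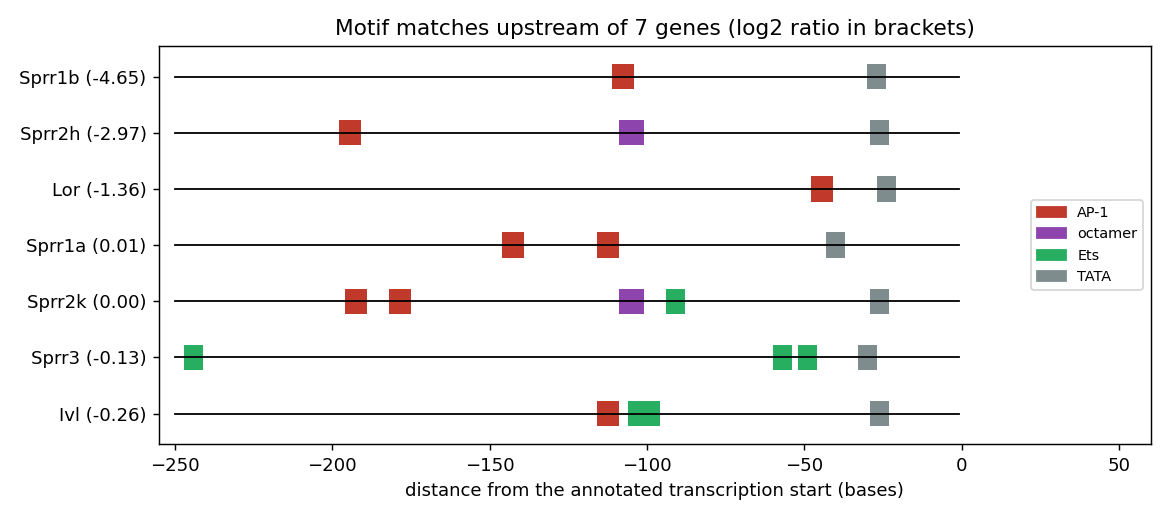
Positions of AP-1, octamer, Ets and TATA motif matches in the 250 bases before the annotated start (horizontal axis, bases) for 7 genes, with the log2 ratio of each in brackets. Sprr2h and Sprr2k have the octamer and TATA matches at the same positions, with log2 ratios of -2.97 and 0.00.

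Lists of other cornification genes, of transcription factors, and of cytokine and growth factor genes, 6 in all, were described in the same way. They were fixed with earlier results of these arrays known. They held 100 measured genes outside the set, of which 5 were at least 2-fold lower and 10 at least 2-fold higher, with a median log2 ratio of -0.03. These shares are 5% and 10%, beside 2.55% and 4.42% of all measured genes. They are not shares of cornification genes alone. The transcription factors gave 6 of the higher and 2 of the lower genes, and the cytokine and growth factor list gave 1 of each. Among 5 further Sprr genes with a probe set, 3 were not measured, and Sprr2k and Sprr2d were within 2-fold. Of the late cornified envelope genes and the genes that fuse an S100 domain to repeats, 14 of 24 were measured and all 14 were within 2-fold, with a median of -0.14. The brightest of these were Lce1f, with 8.02 in the lung-recovered line and 8.34 in the parental line, and Lce1h, with 7.46 and 7.34 in the same order. Flg, Hrnr, Rptn and Tchh, which encode the S100-fused proteins of the granular layer and the hair follicle, were not measured.

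Among 16 measured envelope and junction substrates, 1 was higher, 1 was lower and the median ratio was -0.04. Cst6, which encodes an inhibitor of cathepsins and legumain, read 7.52 in the lung-recovered line and 5.47 in the parental line, 4.14-fold higher, a log2 ratio of 2.05 that became 1.34 with the floor at the 60th percentile. Krt10, a keratin of differentiated epidermis, read 3.71 in the lung-recovered line and 6.20 in the parental line, at least 3.05-fold lower, since the first value is at the floor. The brightest, Anxa1 and S100a10, had log2 ratios of 0.21 and 0.32, and the desmosomal plakin gene Dsp had -0.10. By dimmer probe sets, the ratio was -0.33 for Anxa1, 0.28 and -0.56 for S100a10, and -0.24 and 0.20 for Dsp.

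Of 21 measured transglutaminases and cornification enzymes, 2 were higher, 1 was lower and the median ratio was 0.00. Lgmn, which encodes the cysteine protease legumain, read 10.86 in the lung-recovered line and 9.61 in the parental line, 2.38-fold higher. Sult2b1, a cholesterol sulfotransferase gene, read 8.97 and 7.91 in the same order, 2.08-fold higher, but its log2 ratio of 1.06 was 0.97 after quantile normalization and 0.98 after lowess, short of 2-fold. Elovl4, which encodes an elongase of very long fatty acids, read 3.34 in the lung-recovered line and 6.20 in the parental line, at least 3.05-fold lower. The widely expressed transglutaminase gene Tgm2 read 8.58 and 8.17, and the epidermal Tgm3 5.90 and 5.64, in the same order, both within 2-fold. Ctsl and Ctsd, the brightest of the list, had log2 ratios of 0.40 and 0.33.

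Among 29 measured transcription factors known to act on such genes in other settings, 6 were higher, 2 were lower and the median ratio was -0.03. Ehf, an epithelial Ets factor, read 5.78 in the lung-recovered line and 8.69 in the parental line, 7.52-fold lower, with 2 further probe sets at 5.39-fold and 6.82-fold lower and the remaining one at the floor on both arrays. Cebpd, a C/EBP factor, read 7.76 and 9.84 in the same order, 4.23-fold lower, but 1.57-fold by its dimmer probe set. The related epithelial Ets gene Elf3 had a log2 ratio of -0.67, and Klf4, a factor of the epidermal barrier programme, one of -0.69. Among the higher ones, Fos, which encodes an AP-1 subunit, read 9.79 in the lung-recovered line and 7.63 in the parental line, 4.47-fold higher. Ets1, an Ets factor gene, read 10.39 and 9.13 in the same order, 2.40-fold higher, with its other probe sets between 1.51-fold and 2.22-fold. The Notch effector gene Rbpj read 10.30 in the lung-recovered line and 9.09 in the parental line, 2.31-fold higher, with 1.72-fold and 2.28-fold by its other probe sets. The grainyhead-like gene Grhl1 was 2.28-fold higher, at 8.77 in the lung-recovered line and 7.58 in the parental line. Nfe2l2, an oxidative stress factor gene, was higher by 2.13-fold, or 1.33-fold where its dimmer probe set was used. The AP-1 gene Jun was higher by 2.03-fold, or 1.77-fold where its dimmer probe set was used, and its log2 ratio of 1.02 was 0.95 after quantile normalization or lowess, short of 2-fold.

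The other AP-1 genes did not follow Fos and Jun past 2-fold: Junb had a log2 ratio of 0.29, Fosl1 of 0.42 and Fosl2 of -0.42, with 0.42 by a dimmer Fosl2 probe set. Jund and Ets2, the brightest of the list, had ratios of -0.08 and -0.25. Trp63, the master factor of stratified epithelium, was not measured on either array, nor were Grhl3 and Ovol1.

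Of 18 measured cytokine and growth factor genes, 1 was higher, 1 was lower and the median ratio was 0.01. Jag1, a Notch ligand gene, read 8.16 in the lung-recovered line and 6.63 in the parental line, 2.89-fold higher, with further probe sets at 2.85-fold and 1.12-fold. Il6, a cytokine gene, read 4.61 in the lung-recovered line and 7.89 in the parental line, with the first only just above the floor. It was 9.71-fold lower, a log2 ratio of -3.28, which became -1.74 with the floor at the 60th percentile. Il33 and Egfr, the brightest, had ratios of -0.92 and 0.90.

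**Figure D5:**
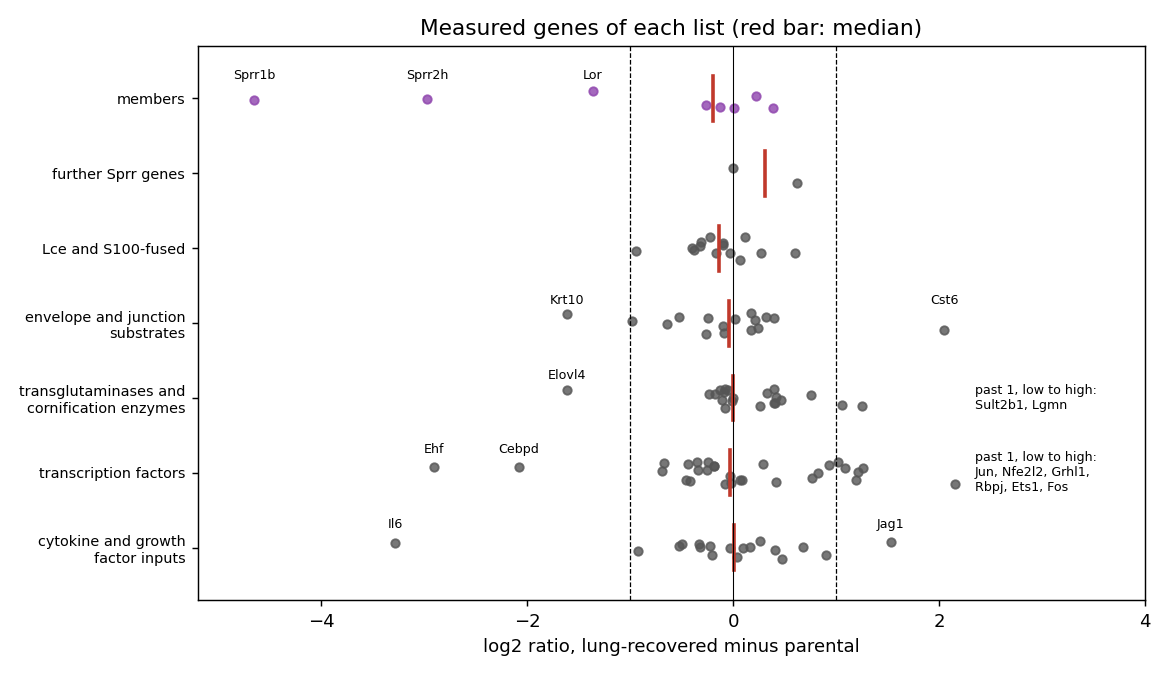
Log2 ratio, lung-recovered minus parental (horizontal axis), of each measured gene of the set (top) and of 6 related lists, with the median of each as a red bar and 2-fold as dashed lines. Genes past 2-fold are named, and the list medians lie between -0.20 for the members and 0.31 for the 2 measured further Sprr genes.

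Most markers of stratified squamous epithelium were not measured in either culture. Of 19 on the arrays, 12 lay at both floors, such as Krt14, Krt16, Krt17, Dsg1a, Dsc3 and Trp63, and 7 were measured. The brightest of these, Sbsn, read 7.84 in the lung-recovered line and 7.60 in the parental line, Krt6a read 6.85 and 7.31, and Krt4 read 5.76 and 6.27, in the same order. The basal keratin gene Krt5 read 4.84 in the lung-recovered line and 4.57 in the parental line, where it was at the floor. The summed linear signal of the list was 645 in the lung-recovered line and 741 in the parental line, and 1 of 7 measured genes, Krt10, was past 2-fold. Markers of simple epithelium such as Krt8, Krt18, Krt19, Epcam and Cdh1 read between 10.36 and 12.98 on the arrays. Others of the list were dimmer, such as Cldn3, at 6.61 in the lung-recovered line and 6.51 in the parental line. Muc1, at 7.26 and 5.61 in the same order, was 3.14-fold higher, the only 1 of 10 measured genes past 2-fold. The summed signal of the list was 38699 and 30862 in the same order. The intestinal genes Cdx1, Vil1, Krt20 and Lgals4 lay at both floors, and Cdx2 read 5.08 and 5.24. The summed signals of lung epithelium, fibroblast, endothelial and leukocyte marker lists were 0.614, 0.820, 1.16 and 0.522 times as high in the lung-recovered as in the parental line. In the lung list, 1 of 8 measured genes was past 2-fold, Napsa, at 5.69 in the lung-recovered line and 7.74 in the parental line, and Aqp5 read 10.01 and 10.68 and Sftpb 6.32 and 6.70 in the same order. None of the 5 measured fibroblast and mural cell genes was past 2-fold. Of 4 measured endothelial genes, Cdh5 was at least 24.4-fold higher, but at least 1.78-fold by its dimmer probe set. Tek was at least 15.8-fold lower, so the ratio of the endothelial sums hides opposite differences. Of 6 measured leukocyte genes, Cd68 (log2 ratio 1.82) and Csf1r (1.12) were higher, and Cd74 (-1.57) and Cd14 (-1.49) were lower. The dimmer Csf1r probe sets had log2 ratios of 0.78 and 0.02, both under 2-fold. For scale, 2.55% of all measured genes were at least 2-fold lower and 4.42% at least 2-fold higher. The part of such cells in the Sprr and Lor differences was not tested.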

How the data were processed

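Total RNA (6 µg per array) from each culture was hybridised as biotin-labelled cRNA on an Affymetrix mouse array, per the labels' protocols. The deposited values are log2 signals of 45037 probe sets, and the base of the logarithm was inferred from their range. MAS5 appears in the submitters' processing notes without a stated role, and background, summary and scaling steps are not given there. On the linear scale, 2% trimmed means were 243 (lung-recovered) and 233 (parental). As they differed by 4.13%, under a limit of 5%, no rescaling was done. Probe sets were named by the platform annotation (34945 with 1 symbol, 34741 of them updated by Entrez identifier to GRCm38.p6 symbols). A gene was represented by its brightest probe set over both arrays. Signals were floored at the 40th percentile of each array, and a value at the floor on 1 array gives a bound. With 1 array per group, genes were counted at 2-fold or more and no test was made. The ratio and count steps were tested on simulated data. The simulated noise was far below the scatter of the real ratios and only bright genes were shifted. That run therefore checks the code and says nothing of the calls in these data. Of each related list, the genes past 2-fold, up to 6 in each direction, and the 2 brightest were named, and other names were chosen after their values were seen. Members and lists were chosen with earlier results of these data known. Upstream sequences were RefSeq's, cut to 250 bases and aligned with Biopython 1.88. Python 3.11.15, pandas 2.3.3 and statsmodels 0.14.6 (lowess, span 0.3) were used. There were 9 alternatives in scaling, floor, probe set choice and symbols.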

Additional observations from a re-analysis of the deposited data

How the results depend on the processing

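The direction of every measured member with a ratio past 2-fold was the same under all 9 alternatives that gave a value. Log2 ratios ranged from -4.73 to -4.55 for Sprr1b, from -3.02 to -2.79 for Sprr2h and from -1.45 to -1.14 for Lor. With the floor at the 60th percentile, 6 members were measured and their median was -0.68 instead of -0.20, as Ivl and Sprr3 dropped out, and the related lists had 3 lower genes instead of 5, since Krt10 and Elovl4 came to -0.05. When suffixed probe sets (_s, _x or _a) were left out, Sprr2h and Ppl had no probe set, and 2 members were at least 2-fold lower. With the median over probe sets, the transcription factors at least 2-fold higher were 3 instead of 6. After quantile normalization or lowess, Sult2b1 and Jun were under 2-fold, so the related lists had 8 higher genes instead of 10 and the enzyme list 1 instead of 2, while the lower genes of the related lists were 6 instead of 5. With the median over probe sets, Ets1 came to 0.99, Jun to 0.92 and Nfe2l2 to 0.75, and 7 related genes were higher. Scaling to equal medians moved the median of all measured genes to 0.10 and that of the measured members from -0.20 to -0.095. After quantile normalization the member median was -0.10, beside -0.01 over all measured genes. After lowess the member median was -0.09, beside 0.01 over all measured genes. Sprr1a, at a ratio of 0.01, ranged from -0.03 to 0.11, so it has no direction. No paired analysis was possible because each group has 1 array. A single array per group limits every value, and signals near the floor, those of Ivl and Sprr3 here, limit dim genes most.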
